A study of Mus musculus with 365 samples.

Results

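The Ly6 surface protein family is represented here by 5 genes (Ly6d, Ly6a, Ly6c1, Ly6c2 and Ly6e), chosen by Entrez identifier out of 23427 genes in the count table and followed in 365 single cells. The cells are EPLM, progenitors named for their lymphoid and myeloid potential, sorted from the femoral bone marrow of C57BL/6 mice with a Flt3 ligand transgene (Flt3Ltg), whose product drives the growth of such progenitors. All cells of both populations carry this transgene, and the labels name pools of 2 mice and give neither age nor sex. The populations are the Ly6D+ part (152 cells on chips 4, 5 and 6, with 40, 60 and 52 cells) and the TN or triple negative part (213 cells on chips 1, 2 and 3, with 75, 69 and 69 cells). The labels do not spell out the 3 missing markers. In the study's sorting, as background knowledge, they are Ly6D, SiglecH and CD11c. The chip was the replicate. Each chip held 1 population and had its own run, so chip and population cannot be told apart, and every p-value is against the spread of chips, which may be technical.

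Ly6 proteins are small, cysteine-rich proteins, most of them held on the outer face of the cell membrane by a glycosylphosphatidylinositol (GPI) anchor. Several are antibody targets in blood cell sorting. Ly6D marks lymphoid progenitors with B cell potential, Ly6A is Sca-1, a marker of mouse stem and early progenitor cells, and the Ly6C antigen, encoded by Ly6c1 and Ly6c2, is high on monocytes. Ly6E is expressed in many tissues. Ly6a, Ly6c and Ly6e transcripts are known to rise under interferon.

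All 5 genes lie on chromosome 15 (GRCm38), within a stretch of 22 RefSeq genes in the order Ly6d, Ly6e, Ly6a, Ly6c1, Ly6c2. The first 90 coding bases of 3 members are given to show how far their messages differ, with the start codon in capitals. They are exonic, and each spans 1 intron. Ly6d (gene chr15:74762056-74763620, minus strand, printed bases within chr15:74762812-74763560, exons 1 and 2) and Ly6e (gene chr15:74955051-74959905, plus strand, printed bases within chr15:74957808-74958288, exons 2 and 3) shared 50.5% of aligned coding positions. Ly6a (gene chr15:74994877-74998031, minus strand, printed bases within chr15:74996549-74997604, exons 1 and 2) shared 45.6% with Ly6d.
Ly6d: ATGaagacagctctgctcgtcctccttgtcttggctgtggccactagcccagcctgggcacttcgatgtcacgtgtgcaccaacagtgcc
Ly6e: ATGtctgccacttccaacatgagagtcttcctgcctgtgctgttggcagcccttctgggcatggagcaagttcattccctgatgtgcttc
Ly6a: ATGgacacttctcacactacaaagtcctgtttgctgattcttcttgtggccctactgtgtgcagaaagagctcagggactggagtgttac

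Ly6c1 (gene chr15:75044018-75048830, minus strand) and Ly6c2 (gene chr15:75108158-75111970, minus strand) are the pair that reads could confuse. Their coding sequences were identical at 384 of 393 positions (97.7%), and Ly6a shared 81.8% of aligned positions with Ly6c1. Coding bases 1 to 120, given below with the bases that differ between both genes in capitals, held 6 of the 9 differences. Bases 66 to 185 held none.
Ly6c1: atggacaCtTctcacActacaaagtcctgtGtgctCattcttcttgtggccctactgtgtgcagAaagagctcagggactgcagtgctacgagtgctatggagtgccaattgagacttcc
Ly6c2: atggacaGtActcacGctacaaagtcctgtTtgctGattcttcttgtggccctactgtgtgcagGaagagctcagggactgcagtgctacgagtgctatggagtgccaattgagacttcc

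The confusable share of each message was measured on the GENCODE transcripts. Of all stretches of 50 bases, 36.7% of Ly6c1 and 33.0% of Ly6c2 also occurred in another gene, against 8.05% of Ly6a and none of Ly6d and Ly6e. At 100 bases the shares were 15.3% for Ly6c1, 15.8% for Ly6c2 and 0 for the other members. How the authors' counting treated reads that match several genes is not stated in these sources, so the split between Ly6c1 and Ly6c2 is uncertain to that extent. The values of Ly6d and Ly6e do not rest on shared stretches of these lengths.

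Of the 5 members, 2 (Ly6c1 and Ly6c2) had an upstream sequence in the RefSeq promoter table (GRCm38.p6). The 250 bases before the outermost listed start of each are printed because the coding sequences are nearly the same and the read counts are not. Ly6c1 was taken from chr15:75048838-75049087 and Ly6c2 from chr15:75111972-75112221, both on the minus strand. Capitals mark bases without an identical partner where the windows overlap. The windows overlap over 228 aligned positions, of which 164 (71.9%) were identical, 52 differed and 12 fell opposite a gap.
Ly6c1: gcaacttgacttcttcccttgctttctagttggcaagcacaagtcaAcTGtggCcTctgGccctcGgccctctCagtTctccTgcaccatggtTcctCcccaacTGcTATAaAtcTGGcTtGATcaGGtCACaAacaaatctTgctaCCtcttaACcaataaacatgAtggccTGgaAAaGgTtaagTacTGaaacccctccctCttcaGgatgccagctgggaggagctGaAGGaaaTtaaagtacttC
Ly6c2: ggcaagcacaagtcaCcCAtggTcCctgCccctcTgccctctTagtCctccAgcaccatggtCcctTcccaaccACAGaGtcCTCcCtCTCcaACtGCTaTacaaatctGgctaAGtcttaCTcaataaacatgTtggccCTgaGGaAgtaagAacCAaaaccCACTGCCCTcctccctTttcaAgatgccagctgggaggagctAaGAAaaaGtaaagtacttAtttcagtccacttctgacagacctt

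To describe these windows, 2 short patterns were searched on both strands: TTCNNNGAA, the core bound by STAT proteins, and CCCNNGGG, a core bound by early B cell factor. Neither window held either of them. Among 32851 RefSeq promoters, 7.02% held the first and 11.8% the second in the same 250 bases.

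The chip sums held 35734620 to 61415823 gene reads. The median cell held 750934 to 823684 reads on the TN chips and 894864 to 1000074 on the Ly6D+ chips, so each Ly6D+ chip was deeper per cell than each TN chip. Shares of cells used thinned reads, while the correlations and limma-trend used unthinned values, and the part of depth in those was not tested. For statements on single cells, each cell was thinned to 200000 reads, and 5 thinned reads or more, equal to 25 CPM (reads per 1000000), counted as detected. CPM of a chip uses TMM-scaled totals. Between 0 and 7 cells per chip had fewer than 1500 detected genes. Libraries of this kind carry no molecular identifiers, so intervals and limits cover counting error only. The number of interferon-response genes detected per cell, out of a list of 25, varied widely between chips and overlapped between populations. It was 3.29, 3.80 and 6.49 on TN chips 1, 2 and 3 and 9.90, 10 and 3.42 on Ly6D+ chips 4, 5 and 6. All 25 were tested between populations and 0 were called by edgeR (3 had an unadjusted p under 0.05). Over all 11797 genes tested, 24 were called and 988 had an unadjusted p under 0.05. All 25 point estimates lay above 0, as did 6005 of the 11797. The median log2 fold change of the 25 was 1.45, against 0.014 over all genes tested.

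Order of the members by level, per kilobase of the deposited gene length, differed between the populations only in the place of Ly6d. This is the transcript of the protein used to sort, so the change follows the gate. Mean levels of Ly6e, Ly6a, Ly6c2 and Ly6c1 fell in this order in both. In Ly6D+ chips Ly6d led with 4086 ± 351 CPM per kilobase (SD, n = 3 chips), followed by Ly6e with 2657 ± 223, Ly6a with 598 ± 405, Ly6c2 with 24.8 ± 35.2 and Ly6c1 with 0.132 ± 0.229. In TN chips Ly6e led with 1802 ± 810 CPM per kilobase. Ly6d (257 ± 145), Ly6a (201 ± 216) and Ly6c2 (81.9 ± 80.9) followed in TN with overlapping chip ranges, and Ly6c1 was last with 0.0626 ± 0.0547. Within each TN chip Ly6c2 (24.8, 46.4 and 174 on chips 1, 2 and 3) lay below Ly6d (120, 243 and 409) and Ly6a (48.1, 107 and 447). The order of Ly6d and Ly6a turned on chip 3, so it does not exceed their spread. In Ly6D+ chips the ranges of Ly6d and Ly6e per kilobase did not overlap, nor did those of Ly6e and Ly6a or of Ly6a and Ly6c2.

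**Figure D1:**
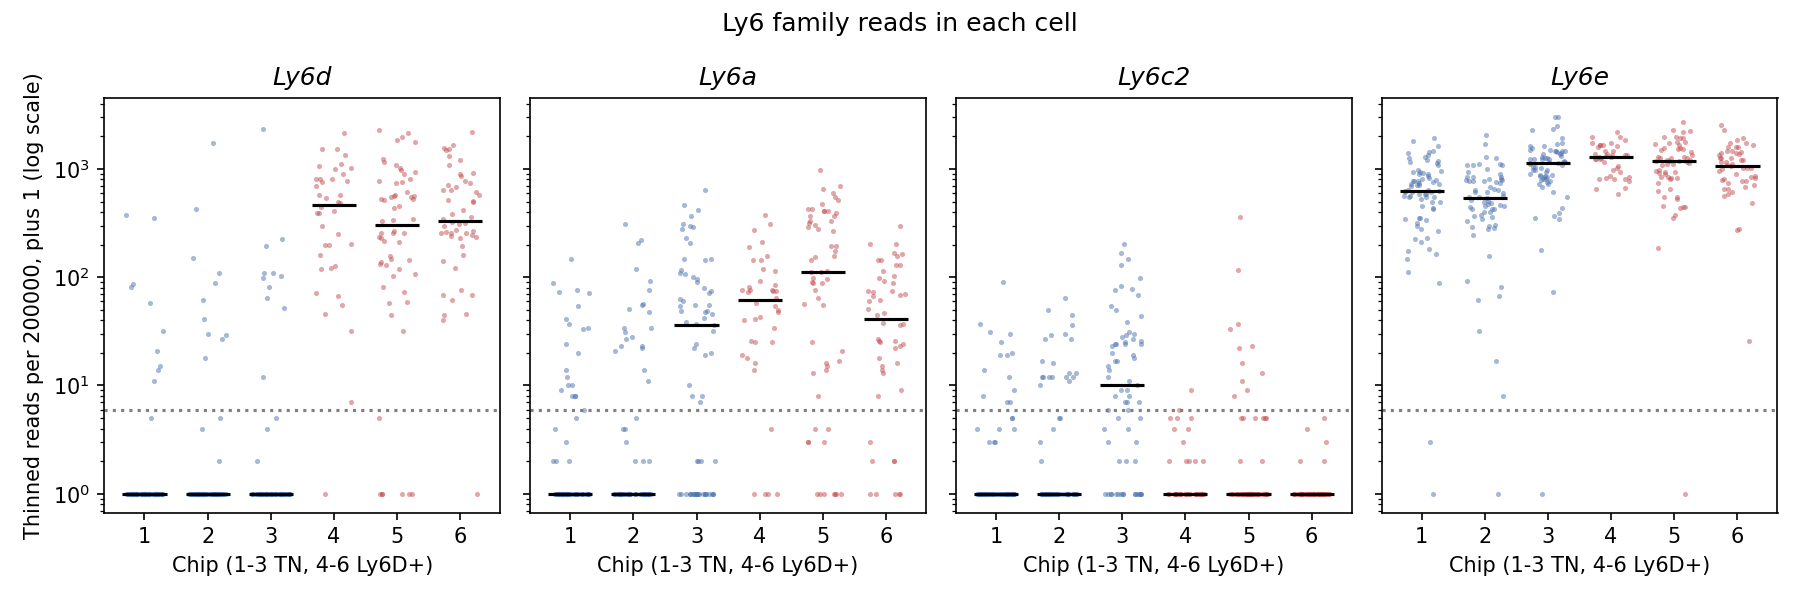
Thinned reads of Ly6d, Ly6a, Ly6c2 and Ly6e in each cell (points; log axis, 1 added to each value) by chip, TN chips in blue and Ly6D+ chips in red. Black lines are chip medians and the dotted line marks the detection limit of 5 reads; Ly6d separates the populations, Ly6a is high on TN chip 3 as well as on the Ly6D+ chips, and Ly6e lies above the limit in nearly every cell.

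Ly6d, the transcript of the protein used to sort, follows the labels. Its chip sums held 83.0, 168 and 283 CPM on TN chips 1 to 3 and 3046, 2860 and 2564 CPM on Ly6D+ chips 4 to 6. Every Ly6D+ chip lay far above every TN chip. The log2 fold change of Ly6D+ over TN was 3.99 ± 0.42 (SE, edgeR quasi-likelihood test, Benjamini-Hochberg adjusted p = 0.0139). Ly6d was the 1 member called among 4 tested, where 24 of 11797 genes (0.203%) were called in either direction. As a gene of the gate, it checks the sort and is no separate finding. It did not pass without TN chip 2 (adjusted p = 0.0949), without Ly6D+ chip 4 (0.0802), without Ly6D+ chip 6 (0.0669) and with the interferon-response level of the chip as a covariate (0.0564), while the log2 fold change stayed between 3.73 and 4.04 in these fits.

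Within the Ly6D+ cells, Ly6d was detected in 97.5%, 88.3% and 98.1% of cells on chips 4, 5 and 6. Among the 143 cells with detected Ly6d, the lowest held 6 thinned reads, the lower quartile was 196, the median 404, the upper quartile 791 and the highest 2287. Sorted positive cells thus covered a wide span of transcript. Of the 9 cells without detected Ly6d, 7 were on chip 5, and 2 of the 9 held a raw Ly6d read. These 9 cells had a median of 1516 detected genes, against 2774 in the other 143, and 4 of the 9 against 2 of the 143 had fewer than 1500. Ly6e was still detected in 8 of the 9, Dntt, the terminal transferase of lymphoid progenitors, in 6, and Siglech in 0, which allows a share of up to 33.3%.

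In TN cells, sorted without Ly6D protein, Ly6d transcript was detected in 13.3%, 15.9% and 15.9% of cells on chips 1, 2 and 3, or 32 of 213 cells. The 32 cells held 10 to 2364 thinned reads with a median of 81, and 6 of them, 2 on each chip, reached the lower quartile of the Ly6D+ cells. Single cells weighed heavily on the TN sums. The highest cell gave 37.4%, 54.7% and 71.9% of all Ly6d reads on TN chips 1, 2 and 3, against 10.4%, 9.54% and 7.96% on the Ly6D+ chips.

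Ly6a, encoding Sca-1, was detected in more cells of every Ly6D+ chip than of any TN chip. It was found in 28%, 30.4% and 63.8% of cells on TN chips 1, 2 and 3 and in 87.5%, 80% and 82.7% on Ly6D+ chips 4, 5 and 6. Between the population means the difference was 42.7 percentage points (exact two-sided permutation test, p = 0.1, the smallest that 3 chips against 3 allow, and 0.133 adjusted over the 4 members). Chip shares of 16.5% of all genes tested did not overlap between populations, nor did those of Ly6d, Ly6a and, at this limit, Ly6c2.

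The level of Ly6a did overlap. Its chip sums held 48.2, 107 and 448 CPM in TN and 424, 1063 and 312 CPM in Ly6D+. TN chip 3 lay above Ly6D+ chips 4 and 6. Over all cells the estimate on the log2 scale was 1.58 ± 0.79 (edgeR, adjusted p = 0.673) and did not pass the test. Chip means of log2(CPM + 1) over cells, which weight each cell's detection more than its reads, gave a difference of 3.92 ± 0.63 (limma-trend, adjusted p = 0.00084), which passed it. Without TN chip 3 the edgeR estimate was 2.94, without Ly6D+ chip 5 it was 0.86, and with the interferon-response level as a covariate it was 0.83; none of these passed.

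Ly6e, the member found in almost every progenitor, was detected in 97.3% to 98.6% of cells on the TN chips and in 98.3% to 100% on the Ly6D+ chips. Its sums held 3281, 2871 and 6285 CPM on TN chips 1 to 3 and 6560, 6230 and 5553 CPM on Ly6D+ chips 4 to 6. TN chip 3 lay among the Ly6D+ chips, and TN chips 1 and 2 lay below all of them. Ly6D+ over TN gave a log2 fold change of 0.56 ± 0.28 (edgeR, adjusted p = 0.663), 0.98 ± 0.13 without TN chip 3 (adjusted p = 0.144), 0.35 without TN chip 2 (0.847) and 0.33 with the interferon-response covariate (0.846). None passed.

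Ly6c2, one of the genes of the Ly6C antigen, was the member detected in more TN than Ly6D+ cells. It was found in 18.7%, 29.0% and 63.8% of cells on TN chips 1, 2 and 3 and in 5%, 18.3% and 0% on Ly6D+ chips 4, 5 and 6. The 0 of 52 cells on chip 6 allow a share of up to 5.77%. The chip shares did not overlap, by the narrow margin of 18.7% on TN chip 1 against 18.3% on Ly6D+ chip 5 (difference of means -29.4 percentage points, exact permutation p = 0.1, 0.133 adjusted over 4 members). At a limit of 1 thinned read the shares overlapped, with 29.3% on TN chip 1 and 32.5% and 31.7% on Ly6D+ chips 4 and 5, and at 20 reads they overlapped too (6.67% on TN chip 1, 10% on Ly6D+ chip 5). The difference of means was -22.9 points at 1 read, -14.8 points at 20 reads and, at 5 reads, -16.0 points without TN chip 3. In CPM the values were 19.8, 37.2 and 140 in TN and 6.44, 52.3 and 0.941 in Ly6D+. They overlapped, because chip 5 stood above TN chips 1 and 2, and 1 cell held 44.8% of the Ly6c2 reads of chip 5. Ly6D+ over TN gave a log2 fold change of -1.72 ± 1.28 (edgeR, adjusted p = 0.795), -4.17 without Ly6D+ chip 5 (adjusted p = 0.358), -0.52 without TN chip 3 (0.979) and -4.86 with the interferon-response covariate (0.289). None passed.

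Ly6c1 had next to no reads. It had 53 reads in 4 of 365 cells, against 13320 reads of Ly6c2 in 152 cells, although 503 of its 795 stretches of 50 bases occur in no other gene. All 4 cells also held Ly6c2 reads. They were 8 Ly6c1 beside 6 Ly6c2 reads in a cell of TN chip 2, 8 beside 653 in a cell of TN chip 3, and 5 beside 35 and 32 beside 119 in cells of Ly6D+ chip 5. No cell reached the detection limit, which allows a share of up to 1.41% of the 213 TN cells and 1.97% of the 152 Ly6D+ cells, and the gene was too low to test.

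**Figure D2:**
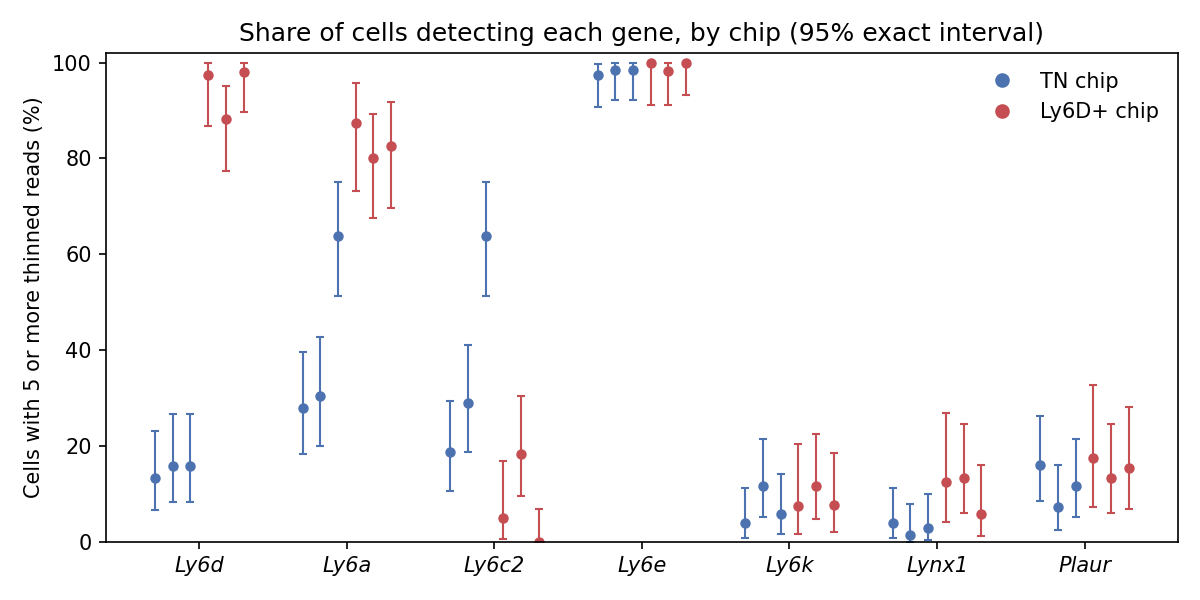
Share of cells with 5 or more thinned reads of each gene (percent) for each chip, with 95% exact binomial (Clopper-Pearson) intervals; blue points are TN chips 1 to 3 and red points Ly6D+ chips 4 to 6, from left to right. Ly6a shares on the Ly6D+ chips lie between 80% and 87.5%, above all TN chips, and TN chip 3 stands apart from TN chips 1 and 2 for Ly6a and Ly6c2 (both 63.8%).

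TN chip 3 was the TN chip with the highest Ly6a, Ly6c2 and Ly6e level, and also the one with most interferon-response genes per cell (6.49 against 3.29 and 3.80). The run labels place TN chip 3 and Ly6D+ chip 4 closest in time across the populations. Between these chips Ly6a (448 and 424 CPM) and Ly6e (6285 and 6560 CPM) were close, while Ly6d (283 and 3046 CPM) and Ly6c2 (140 and 6.44 CPM) were far apart. Ly6D+ chip 6, with 3.42 interferon-response genes per cell, held less Ly6a (312 CPM) than the other Ly6D+ chips and more than TN chips 1 and 2. Its Ly6e level (5553 CPM) likewise lay above TN chips 1 and 2, which had 3281 and 2871 CPM at a like interferon-response level. With 6 chips, the part of the interferon-response level in these differences was not tested beyond the covariate fits.

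**Figure D3:**
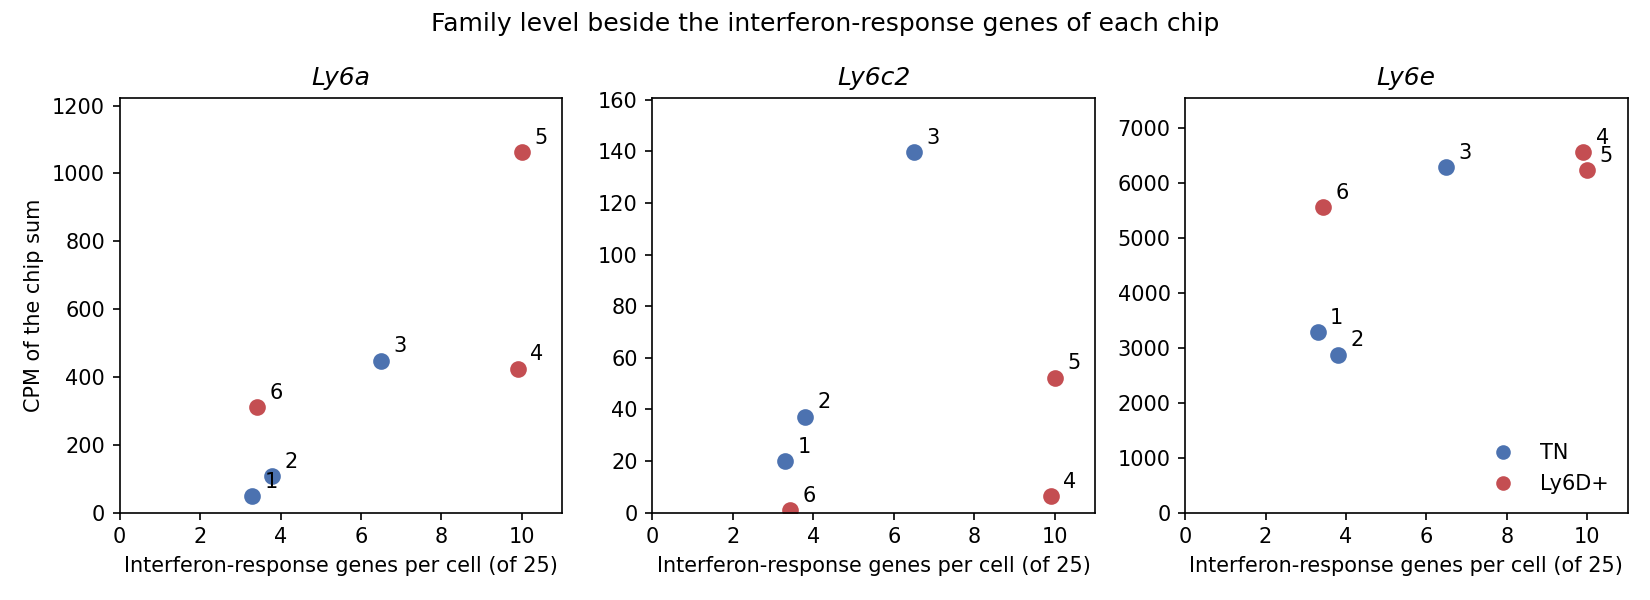
CPM of Ly6a, Ly6c2 and Ly6e in the 6 chip sums (numbered points, TN blue, Ly6D+ red) against the mean number of 25 interferon-response genes detected per cell. Chips 3, 4 and 5 lie to the right with 6.49 to 10 genes; Ly6D+ chip 6 holds 312 CPM of Ly6a at 3.42 genes, above the 48.2 and 107 CPM of TN chips 1 and 2.

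Within the chips, Ly6a went with the interferon-response genes over cells in both populations. The Spearman correlation between its level and the number of interferon-response genes detected was 0.35 ± 0.19 in TN and 0.39 ± 0.20 in Ly6D+ (mean and SD of 3 within-chip values, from 0.14 to 0.58). For Ly6e it was 0.19 ± 0.25 in TN and 0.30 ± 0.28 in Ly6D+, with a negative value on 1 TN chip. The highest values of Ly6a and Ly6e, 0.58 and 0.62, were on Ly6D+ chip 5. That chip held 6 cells with fewer than 1500 detected genes, and the part of gene number was not tested. Cells of a chip share their run, so these values and the correlations below are descriptions over cells and carry no p-value.

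Combining Ly6d, Ly6a and Ly6c2 gave each cell a family pattern. Of 213 TN cells, 74 (34.7%) had none of the 3 detected, 42 had Ly6a alone, 41 Ly6c2 alone and 24 Ly6a with Ly6c2. The share with none was 49.3%, 42.0% and 11.6% on chips 1, 2 and 3, so this pattern varied widely between TN chips. Of 152 Ly6D+ cells, 111 (73.0%) had Ly6d and Ly6a without Ly6c2, 20 had Ly6d alone and 11 had all 3. The pattern of Ly6d and Ly6a without Ly6c2 covered 80%, 60% and 82.7% of cells on chips 4, 5 and 6 and 2.67%, 7.25% and 4.35% on TN chips 1, 2 and 3. Chip 5 was lowest among the Ly6D+ chips, where 15% of cells had all 3. Each pattern depends on Ly6d, the transcript of the protein used to sort, so much of the gap between populations follows the gate. When only cells with detected Ly6d are counted, Ly6a without Ly6c2 was found in 111 out of 143 on the Ly6D+ chips. On the TN chips the count was 10 out of 32. The difference among these cells was not tested.

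TN cells with detected Ly6d were then set against the other TN cells of the same chip, to ask whether other family members accompany the transcript in cells sorted without the protein. There were 10, 11 and 11 detected cells on chips 1, 2 and 3 beside 65, 58 and 58 others. Ly6a was detected in 20 of 32 (62.5%) cells with Ly6d and 66 of 181 (36.5%) without. On chips 1, 2 and 3 the shares were 40%, 54.5% and 90.9% with Ly6d and 26.2%, 25.9% and 58.6% without. The higher share was with Ly6d on each chip. The sums gave 72.1, 329 and 1248 CPM of Ly6a with Ly6d and 43.6, 64.2 and 297 CPM without, a log2 fold change of 1.73 ± 0.41 with chip in the model (edgeR, unadjusted p = 0.0056, adjusted p = 0.878). Single cells weighed on these sums too. The highest cell with Ly6d held 312 thinned Ly6a reads on chip 2 and 640 on chip 3. Both were also the cells with most Ly6d on their chips, at 1736 and 2364 thinned reads. Median thinned Ly6a reads on chips 1, 2 and 3 were 0.5, 27 and 208 with Ly6d and 0, 0 and 20 without.

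Ly6e was 4072, 3994 and 8114 CPM in cells with Ly6d and 3105, 2584 and 5806 CPM in cells without it, a log2 fold change of 0.50 ± 0.11 (edgeR, unadjusted p = 0.00368, adjusted p = 0.878). Ly6a and Ly6e were higher on all 3 chips, which 8.45% of 11609 genes tested also were, while the median gene had a log2 fold change of -0.49. Ly6c2 gave 15.9, 17.6 and 204 CPM with Ly6d and 20.2, 39.6 and 125 CPM without (log2 fold change -0.27 ± 0.74, adjusted p = 0.989), higher on chip 3 and lower on chips 1 and 2. On chip 3, 1 cell, also the highest there in Ly6d and Ly6a, held 201 of the 364 thinned Ly6c2 reads of the cells with Ly6d. Their mean was 33.1 thinned reads with that cell and 16.3 without it, beside 23.8 in the cells without Ly6d. The cell was left out after seeing the data. No cell was left out of the cells without Ly6d, whose highest held 165. The value of 16.3 thus shows the weight of 1 cell and is no like-for-like comparison. The share of cells with detected Ly6c2 was higher with Ly6d on chips 1 and 3 (30% against 16.9% and 72.7% against 62.1%) and lower on chip 2 (2 of 11 against 18 of 58 cells). In detection, 13 of 32 cells with Ly6d and 65 of 181 without had Ly6c2.

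No gene was called in this comparison by edgeR (0 of 11609, 0%), although 529 had an unadjusted p under 0.05. DESeq2 called 608 genes, 78 higher and 530 lower, and Ly6a was among the higher (log2 fold change 1.82, adjusted p = 0.0134). limma-trend on class means called 4 genes, and no member was among them. The classes had unequal cell numbers, and cells with Ly6d had somewhat more detected genes (medians of 3093 against 2651, 2856 against 2573 and 2588 against 2558 on chips 1, 2 and 3). The part of cell number and gene number in the result was not tested.

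Genes of other lineages, from lists of marker genes, gave the setting of these cells. Mpo, a granule enzyme of myeloid cells, was at 109, 171 and 66.8 CPM in TN cells with Ly6d and at 1959, 1313 and 2959 CPM in those without (log2 fold change -4.19 ± 0.52, edgeR, unadjusted p = 0.000195, adjusted p = 0.839). The granule protease gene Elane was detected in 0 of 32 cells (a share of 9.38% at most by its count) and in 23 of 181 cells. Of all 11609 genes tested, 7553 had a point estimate below 0, with a median of -0.49. Of 17 tested granulocyte and monocyte genes 16 did, with a median of -1.99. Of 13 conventional dendritic genes 12 did (median -3.64), and of 14 T, NK and innate lymphoid genes 12 did (median -5.04). A gene with no reads in the cells with Ly6d, such as Ciita (-14.6), gives a very large negative estimate. Conventional dendritic genes detected per cell were 3.1, 3.09 and 3.91 with Ly6d and 3.75, 4.1 and 3.66 without (chips 1, 2 and 3). T, NK and innate lymphoid genes were 1.8, 0.818 and 1.36 against 1.89, 1.67 and 1.64. Granulocyte and monocyte genes were 2.9, 2.27 and 2 against 3.12, 2.95 and 3.9. Detection differed little for 2 conventional dendritic genes. H2-Aa was detected in 8 of 32 cells with Ly6d and 49 of 181 without, and Cst3 in 90.6% and 89.0%. Ciita was detected in 0 of 32 and 18 of 181. No member of any list was called.

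The lymphoid and plasmacytoid lists were mixed. Of 16 tested early lymphoid genes 10 had a point estimate above 0 and 6 below (median 0.24), and of 13 plasmacytoid dendritic genes 9 lay above and 4 below (median 0.33). Ikzf3, a lymphoid transcription factor gene of the early lymphoid list that is named after its values were seen, had no reads in the cells with Ly6d and 23.5, 33.7 and 32.5 CPM in those without on chips 1, 2 and 3. Among the genes with a point estimate above 0, Dntt was detected in 19 of 32 (59.4%) cells with Ly6d and 46 of 181 (25.4%) without, and Cox6a2, a mitochondrial subunit gene used as a plasmacytoid dendritic marker, in 65.6% and 31.5%. Siglech, the gene of a surface lectin of plasmacytoid dendritic cells, was detected in 28.1% and 6.63%. The log2 fold changes were 1.31 ± 0.43 for Dntt, 2.57 ± 0.49 for Cox6a2 and 3.06 ± 0.75 for Siglech (edgeR, adjusted p = 0.878 for each). Ebf1, an early B lineage factor, was detected in 2 of 32 and 6 of 181 cells.

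**Figure D4:**
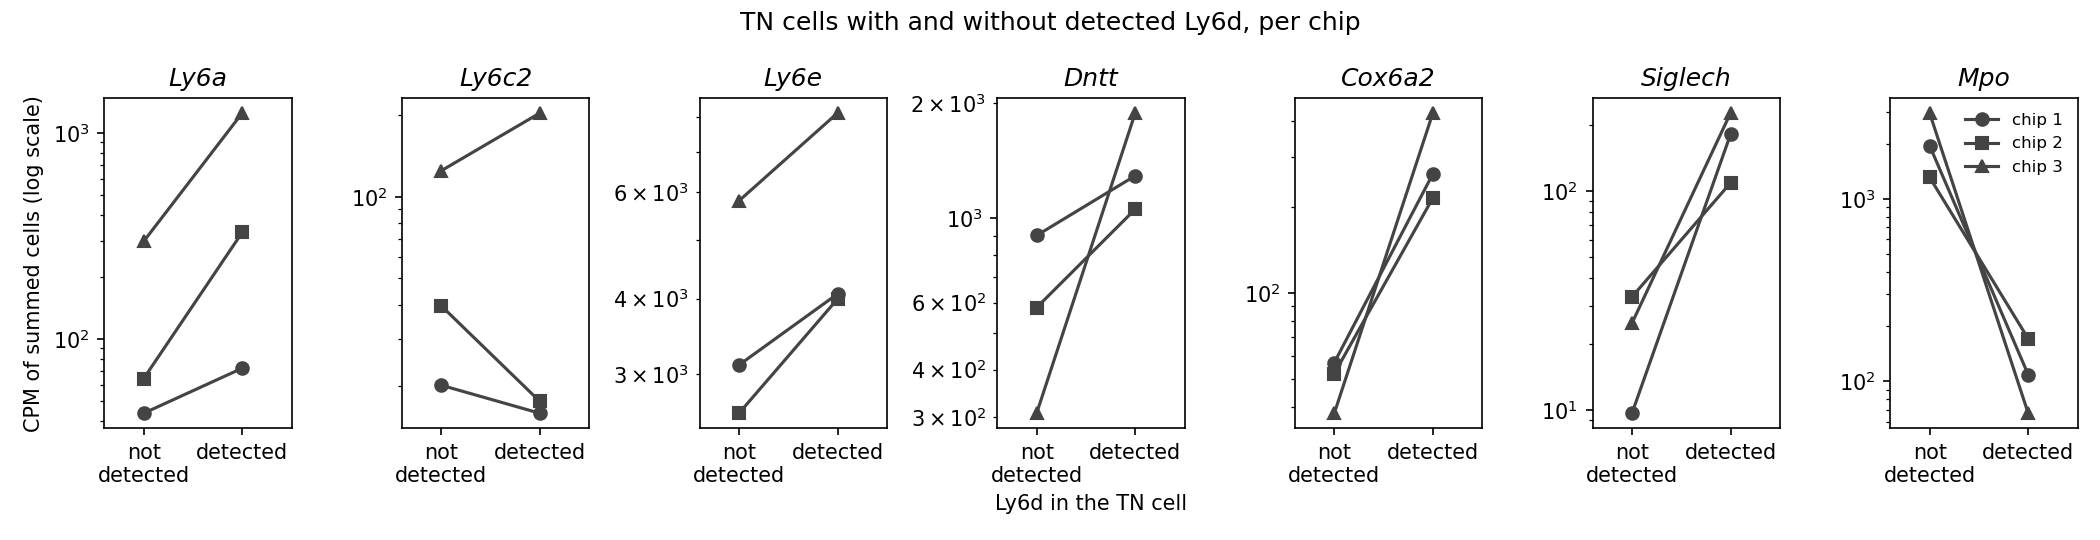
CPM (log axis, scale set per gene) of Ly6a, Ly6c2, Ly6e, Dntt, Cox6a2, Siglech and Mpo in TN cells without (left) and with (right) detected Ly6d, summed per chip; each line joins the classes of 1 chip. Ly6a and Ly6e lie higher on the right on all 3 chips and Ly6c2 on chip 3, and Mpo lies between 66.8 and 171 CPM on the right against 1313 to 2959 CPM on the left.

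The same split of Ly6D+ cells could not be tested, since the undetected class held 1, 7 and 1 cells. Ly6a was detected in 122 of 143 (85.3%) cells with Ly6d and 4 of 9 without, and Ly6c2 in 12 of 143 and 1 of 9. On chip 5, which held 7 of the 9, the median number of detected genes was 1204 without Ly6d and 2653 with it.

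Within chips, members went together to different degrees. Ly6c2 and Ly6e gave a Spearman correlation over TN cells of 0.36 ± 0.02 (mean and SD of 3 chips, 0.34 to 0.38), the smallest spread of the 6 pairs. Ly6d and Ly6a gave 0.25 ± 0.21 in TN and 0.37 ± 0.20 in Ly6D+, and Ly6d and Ly6e gave 0.24 ± 0.08 and 0.32 ± 0.17. These 2 pairs and Ly6c2 with Ly6e, which gave 0.26 ± 0.20 in Ly6D+, were positive on all 6 chips. With thinned reads Ly6c2 and Ly6e gave -0.076 on Ly6D+ chip 4, where 2 cells had detected Ly6c2. Ly6a and Ly6c2 gave -0.031 ± 0.15 in TN, and Ly6a and Ly6e ranged from -0.27 to 0.24 over the TN chips, with no common direction. All these values include cells where a member was not detected. Over TN cells with both detected, Ly6d and Ly6e gave -0.28, 0.59 and -0.22 on chips 1, 2 and 3. Ly6c2 and Ly6e gave 0.05, 0.25 and 0.39, and Ly6d and Ly6a gave 0.079 on chip 3, with too few cells elsewhere. In Ly6D+ such means were 0.27 for Ly6d and Ly6e and 0.28 for Ly6d and Ly6a.

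The companions of the members over cells were in part shared. The genes most alike in pattern were taken as those with the highest mean within-chip Spearman correlation, positive on each chip used, among 6952 genes detected in at least 10% of cells. For Ly6d over 6 chips they were Siglech (0.37 ± 0.14), Cox6a2 (0.37 ± 0.13), Irf8 (0.35), an interferon regulatory factor of myeloid and plasmacytoid cells, the transferrin receptor gene Tfrc (0.33) and Tns1 (0.31). For Ly6a they were Ube2l6 (0.32 ± 0.18) and Ifitm3 (0.31 ± 0.21), both known interferon-induced genes, then Ly6d (0.31), Dntt (0.30) and Cox6a2 (0.29). Both Ly6d and Ly6a thus had Cox6a2 among their nearest genes. Some of these relations were near 0 on their lowest chip. The lowest values were 0.0027 for Ly6d with Irf8, 0.0044 for Ly6a with Dntt and 0.0012 for Ly6a with Cox6a2.

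For Ly6c2 the nearest genes, over the 4 chips with at least 10 detecting cells, were Lgals1 (0.54 ± 0.12), which encodes galectin-1, Ms4a6c (0.49), Grn (0.49), which encodes progranulin, Cybb (0.48), a subunit of the phagocyte oxidase, and Ctsh (0.46), a lysosomal protease. For Ly6e they were Lgals1 (0.31 ± 0.07), Ly6c2 (0.31 ± 0.14), Trim30a (0.30), Lsp1 (0.30) and Irf8 (0.30). Lgals1 was nearest to both Ly6c2 and Ly6e. Irf8, also among the nearest genes of Ly6d, gave 0.016 with Ly6e on its lowest chip.

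Against the marker lists, counted as list genes detected per cell, Ly6a and Ly6c2 took opposite directions in TN cells with the early lymphoid list. With the plasmacytoid dendritic list both had positive means (0.33 ± 0.32 and 0.28 ± 0.16). On TN chip 1, however, Ly6a gave -0.039 with this list and Ly6c2 gave 0.29. Ly6a gave 0.57 ± 0.06 with the early lymphoid list (0.50 to 0.62 over TN chips) and 0.37 ± 0.09 with the stem and multipotent list. Ly6c2 gave -0.38 ± 0.10 with the early lymphoid list and 0.50 ± 0.07 with the granulocyte and monocyte list. Ly6d gave 0.34 ± 0.12 with the early lymphoid and 0.36 ± 0.06 with the plasmacytoid dendritic list. Ly6e gave 0.25 ± 0.08 with the granulocyte and monocyte list and 0.29 ± 0.07 with the plasmacytoid dendritic list.

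In Ly6D+ cells Ly6d gave 0.49 ± 0.16 with the plasmacytoid dendritic list (0.33 to 0.66 over 3 chips). With the early lymphoid list it gave -0.0013 ± 0.058 and with the B lineage list -0.15 ± 0.15. The value of 0.66 was on chip 5, where Ly6d also gave 0.49 with genes of GPI anchor synthesis and transfer. Chip 5 held 6 cells with fewer than 1500 detected genes, and chips 4 and 6 held 0. The part of gene number in these values was not tested. By single genes, the 26 Ly6D+ cells with detected Siglech had a chip median of 791 ± 185 thinned Ly6d reads (mean and SD of 3 chips), and the 126 without had 304 ± 83. The order was the same on each chip. For Ebf1 the chips differed in direction: the medians with and without it were 294 and 689 on chip 4, 332 and 301 on chip 5, and 285 and 350 on chip 6.

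Dntt, itself one of the early lymphoid genes just counted, gives an example in numbers of cells. Ly6a was detected in 44 of 65 (67.7%) TN cells with Dntt and 42 of 148 (28.4%) without. Ly6c2 was detected in 9 of 65 (13.8%) with Dntt and 69 of 148 (46.6%) without. With Mpo, the differences were small: Ly6c2 in 26 of 73 (35.6%) cells with it and 52 of 140 (37.1%) without, Ly6a in 45.2% and 37.9%. Among the 21 TN cells with detected Siglech, 16 (76.2%) had Ly6c2, against 62 of 192 (32.3%) without Siglech. With Il7r, the interleukin 7 receptor gene, 3 of 33 TN cells had Ly6c2, against 75 of 180 without. Ly6a differed less, in 14 of 33 cells with Il7r and 72 of 180 without (42.4% and 40%). With Kit, of the stem and multipotent list, 27 of 73 TN cells had Ly6a, against 59 of 140 without (37.0% and 42.1%).

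**Figure D5:**
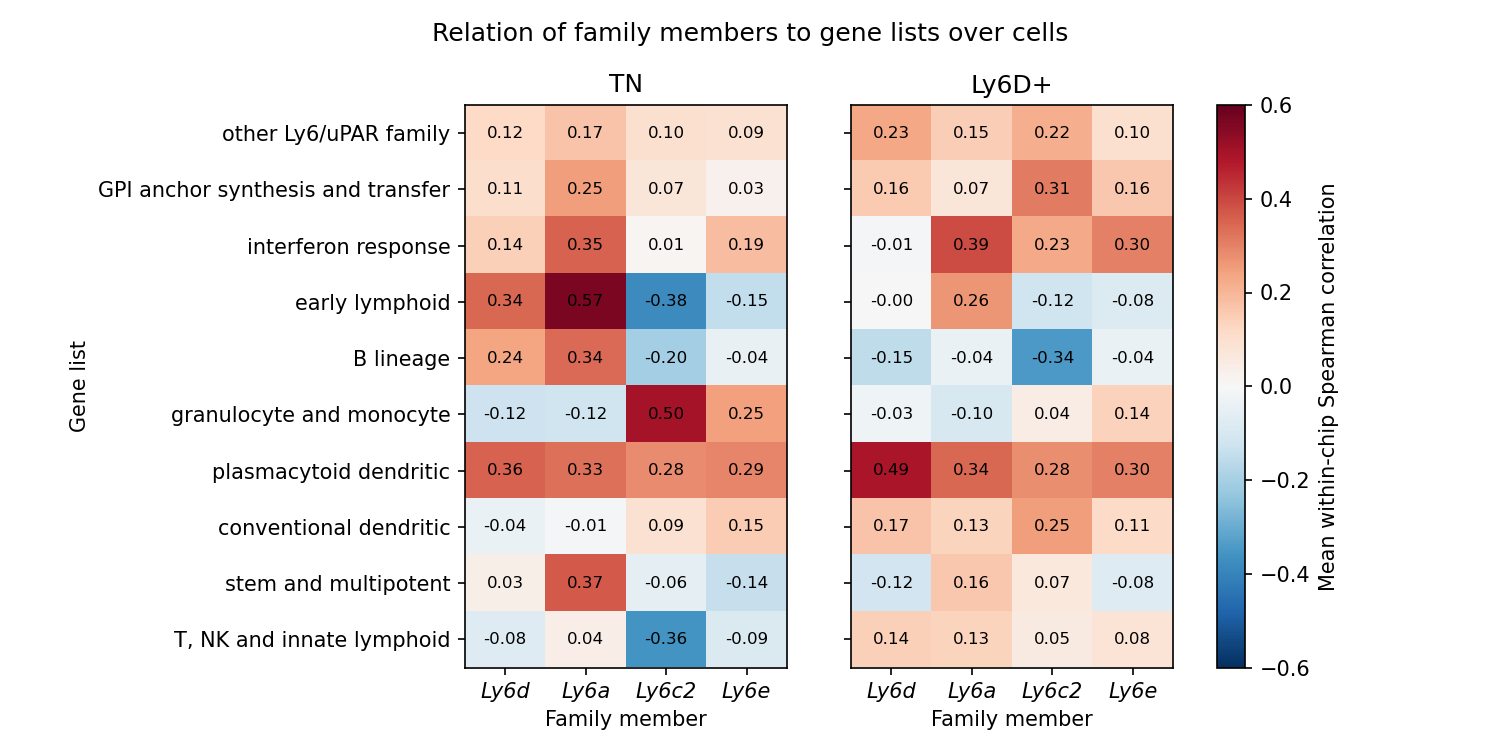
Mean over 3 chips of the within-chip Spearman correlation (color and printed value) between each member's level and the number of genes of a list detected in a cell, for TN (left) and Ly6D+ (right) cells. In TN, Ly6a stands at 0.57 with the early lymphoid list and Ly6c2 at 0.50 with the granulocyte and monocyte list; in Ly6D+, Ly6d stands at 0.49 with the plasmacytoid dendritic list.

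Most other genes of the Ly6/uPAR family had few or no reads. Of 38 other members listed, 35 were in the table, 23 had no read in any cell and 9 had reads in 1 to 10 cells. Ly6k, Lynx1 and Plaur, the urokinase receptor, had reads in 42, 41 and 89 cells. Of the 35, 5 passed the filter on low counts between populations and 0 were called by edgeR (0 also at an unadjusted p under 0.05). Over all 11797 genes tested, 24 (0.203%) were called and 988 had an unadjusted p under 0.05. The log2 fold changes were 1.37 ± 0.76 for Ly6k, 2.29 ± 1.12 for Lynx1 and 0.999 ± 0.60 for Plaur (edgeR, adjusted p = 0.707, 0.657 and 0.724). Lynx1, which encodes a modulator of nicotinic receptors, was detected in 4%, 1.45% and 2.90% of cells on the TN chips and in 12.5%, 13.3% and 5.77% on the Ly6D+ chips.

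No gene of GPI anchor synthesis and transfer, whose products build and attach the anchor, was called. Of 31 listed, 27 were tested between populations and 0 were called by edgeR (1 higher and 1 lower at an unadjusted p under 0.05). Over all 11797 genes tested, 24 (0.203%) were called, and 504 were higher and 484 lower at an unadjusted p under 0.05. Of the 27, 14 point estimates lay above and 13 below 0, with a median log2 fold change of 0.049. The smallest p values belonged to Pigs, a subunit of the anchor transamidase (-0.93 ± 0.31, adjusted p = 0.398), and Pigu, another (1.06 ± 0.40, adjusted p = 0.488). Per cell, 5.19 to 5.71 of 30 measured genes were detected on the TN chips and 5.73 to 5.87 on the Ly6D+ chips. In TN cells with and without Ly6d, 25 were tested and none was called, as was none of all 11609 genes tested. The median of the 25 was -0.57 against -0.49 over all genes.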

How the data were processed

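The authors deposited raw read counts per gene for 365 single cells, captured on Fluidigm C1 chips with SMARTer full-length cDNA and Nextera XT libraries, per the labels' protocols. A column of gene lengths in bases in the deposited table gave values per kilobase. The submitters' processing notes name mm9 and R 3.2.0. The aligner, counting program, annotation, strand setting and doublet treatment were not given in the sources used here. The authors had removed weak cells before deposit, per the series' design text, and all deposited cells were kept, without a doublet caller.

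Gene symbols came from RefSeq (GRCm38.p6) by Entrez identifier for 23334 of 23427 rows, and sequences and coordinates from GENCODE and RefSeq on GRCm38, which is not the build of the counts. Counts were summed per chip (population comparison) or per chip and Ly6d class (TN cells, with chip in the model and Ly6d left out) and tested with edgeR 4.0.16 (quasi-likelihood, TMM, filterByExpr, adjusted p under 0.05). SE was taken as the size of the log2 fold change over the root of F. DESeq2 1.42.0 and limma 3.58.1 were alternatives. Correlations used log2(CPM + 1) per cell. The steps were tested on simulated data.

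The members and lists were chosen with earlier results of these data known. Genes named were the members, other family genes detected in 5% of cells of any chip, the 5 most alike genes per member, and up to 3 genes with the smallest p per list. Ebf1, Il7r and Kit fall outside this rule and were chosen after their values were seen. Not all genes under this rule are printed.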

Additional observations from a re-analysis of the deposited data

Results flagged for a closer look

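A pair of relations over cells had one sign on every TN chip and the other on every Ly6D+ chip, and the difference was not tested in either case. Ly6c2 against the stem and multipotent list gave -0.061 ± 0.029 in TN and 0.065 ± 0.041 in Ly6D+ (mean within-chip Spearman correlation and SD, n = 3 chips), a difference of 0.126. On Ly6D+ chips 4 and 6, 2 and 0 cells had detected Ly6c2, so there the ranks rest mostly on reads below the detection limit. Ly6e against the T, NK and innate lymphoid list gave -0.087 ± 0.049 in TN and 0.084 ± 0.057 in Ly6D+, a difference of 0.172. They stood among 46 such relations (40 with lists, 6 between members) that were compared.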

How the results depend on the processing

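The direction of Ly6d, Ly6a, Ly6c2 and Ly6e between populations stayed the same in all alternatives run, and so did the sign of the difference in share of cells for the 4 members, at detection limits of 1 and 20 thinned reads, without thinning and without each chip in turn, though the Ly6c2 shares overlapped at both other limits. Ly6d kept its call with DESeq2, limma-trend (8.78 as a difference of chip means of log2(CPM + 1)), no filter and without cells under 1500 genes. Leaving out 1 chip at a time gave a log2 fold change of 3.65 to 4.49, with the call lost without TN chip 2, Ly6D+ chip 4 or Ly6D+ chip 6. The covariate for the interferon-response level, chosen after seeing the data, gave 3.73. Ly6a passed with limma-trend (3.92) and in no other setting run. Genes called between populations were 24 with edgeR, 399 with DESeq2, 326 with limma-trend, 4 with the covariate and 2 to 23 with 1 chip left out (2 without Ly6D+ chip 6, 4 without chip 4, 7 without TN chip 3, 8 without chip 1 and 12 without chip 2).

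In TN cells by Ly6d class, Ly6a kept its direction throughout (1.40 to 2.41) and passed with DESeq2 (1.82). Ly6c2 changed sign to 0.37 with no replicate block for the chip, and ranged from -0.77 to 0.18 with 1 chip left out, the positive value being that without TN chip 2; the causes of these changes were not tested. Without the block edgeR called 0 genes, as with it (762 and 529 at an unadjusted p under 0.05). DESeq2 called 608 genes and limma-trend 4. Of 22 other values for pair correlations, 18 moved by less than the SD between chips. The 4 that moved further were over cells with both members detected. They were Ly6d with Ly6e, Ly6a with Ly6c2 and Ly6c2 with Ly6e in TN, and Ly6d with Ly6c2 in Ly6D+. Cells with under 25 CPM of a gene count as undetected, so low transcript and no transcript are not separated, and 32 TN cells with Ly6d limit that comparison.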
